A study of Solanum lycopersicum with 6 samples.

Results

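Sucrose made in a leaf is moved by sucrose transporters, split by sucrose synthases or invertases, and passed on as fructose and glucose to fructokinases and hexokinases, whose phosphorylated products feed glycolysis, starch and the cell wall. Sucrose synthase splits sucrose reversibly into UDP-glucose and fructose, so that fructokinase takes up its fructose, while hexokinases phosphorylate glucose and also act as glucose sensors in plants. The genes described here are the tomato genes whose RefSeq symbol or synonym begins with SUT, SUS, FRK or HXK and a digit. The rule finds 14 genes: 3 sucrose transporters, 3 sucrose synthases, 4 fructokinases and 4 hexokinases. Of these, 12 were matched to 27 of the 43603 distinct non-control probes of the array, and the transporter SUT1 and the synthase SUS4 had no probe matched by accession and were not analysed here. Invertases are outside the rule.

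RNA came from leaf discs of 1 cm, cut from 4-week-old plants of Micro-Tom, a dwarf cultivar of tomato (Solanum lycopersicum). The discs floated for 12 h under continuous light on 300 µM loliolide, a carotenoid metabolite (3 samples), or on 0.1% methanol as the control (3 samples). A temperature of 25 °C and a cycle of 16 h light and 8 h dark are also given for all samples. No methanol content is given for the loliolide samples. Every sample has an Agilent array of 1 colour to itself, and precision is limited by how few arrays there are. The labels name triplicate harvests but no separate plants, so the p-values measure only the spread between these samples, which may be technical. A leaf disc holds many cell types, and fewer cells of a type cannot be told apart from less RNA per cell.

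Between 86.9% and 87.6% of the spots on the loliolide arrays and between 84.5% and 85.3% on the methanol arrays were well above background by the scanner's flag. The 75th percentile of the signal was 818 on the array of loliolide replicate 3 and between 1047 and 1117 on the 5 others. All loliolide arrays lay on one slide and all methanol arrays on another, so slide and treatment cannot be told apart. All 9 probes of the leaf genes CAB4 and CAB6A, which encode chlorophyll-binding proteins, were well above background on all 6 arrays. Of 21 probes of fruit genes 1 was, a probe of the ripening gene E8, and 16 were well above background on no array, among them all 6 of the fruit gene 2A11. All 3 probes of the root list, from ext1, were well above background on no array, and the flower list matched abscission and peroxidase genes that mark no flower.

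No gene of the set passed the test between loliolide and methanol. Of the 27 probes, 26 from 11 genes were tested, and 0 passed a limma adjusted p of 0.05, where 0.783% of all 37414 tested probes passed (0.77% higher and 0.0134% lower). At an unadjusted p under 0.05 limma counted 2 of the 26, 1 higher and 1 lower, against 20.1% of all tested probes (14.7% higher and 5.39% lower). The remaining probe, that of the fructokinase FRK4, was well above background on 0 of 6 arrays. Signals are given below as log2 of the processed signal minus the array's 75th percentile, so that 0 is the level of a probe at that percentile. On this scale the differences of the 26 probes, loliolide minus methanol, ran from -0.38 to 0.66 with a median of 0.04, beside a median of 0.06 over all tested probes. The loliolide and methanol arrays did not overlap for 5 of the 26 probes, 2 higher and 3 lower with loliolide, where 29.5% of all tested probes did not overlap (19.9% higher and 9.62% lower).

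**Figure D1:**
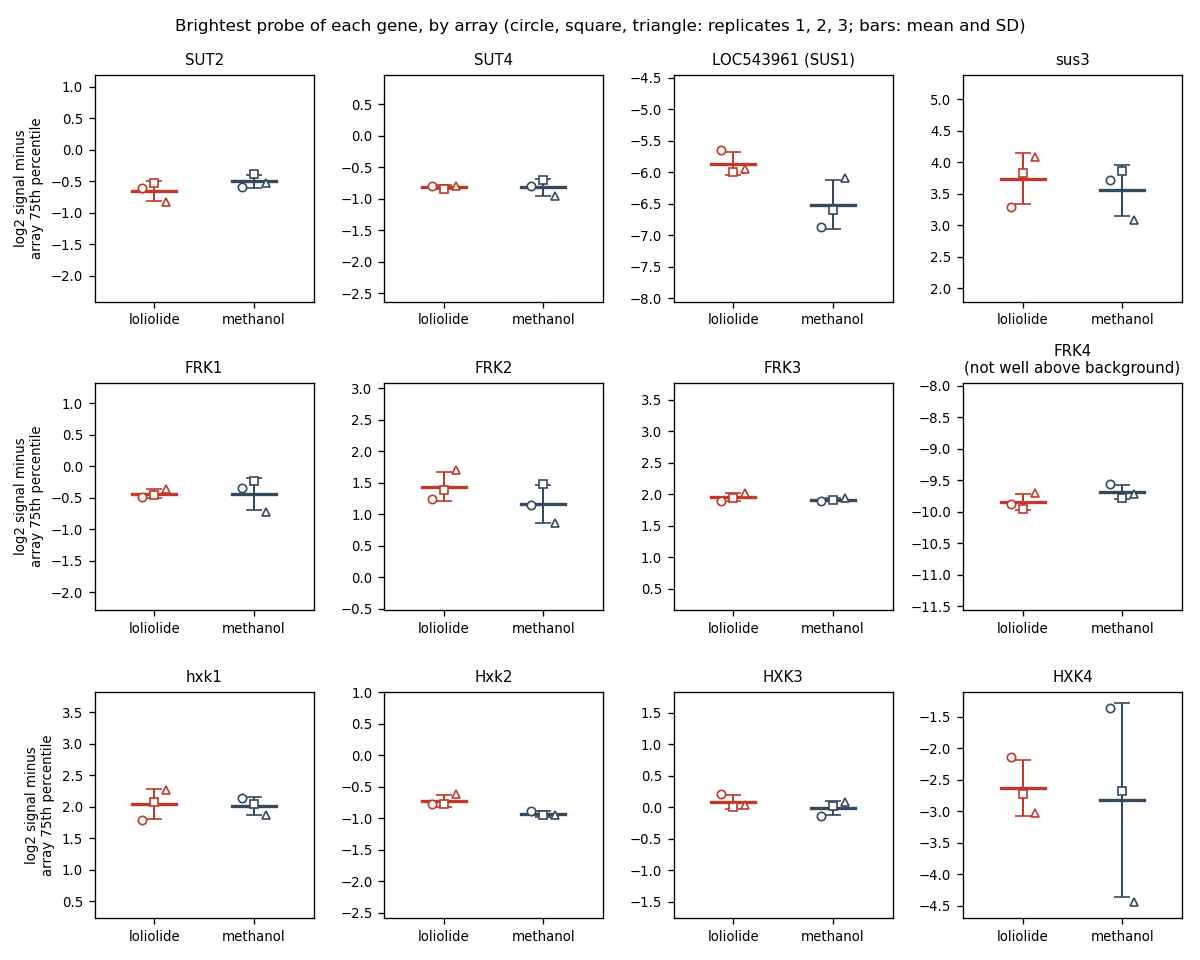
Log2 signal minus the array's 75th percentile (y axis, the same span of 3.6 log2 units in each panel) for the brightest probe of each of the 12 genes, with loliolide left of methanol. Symbols are single arrays and bars the mean and SD of 3 arrays. The groups overlap in all panels except those of LOC543961 and Hxk2, and HXK4 has the widest spread.

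A missed threshold does not show that a gene did not respond, so the 95% intervals of the differences matter here. They are limma's intervals for single probes and are not adjusted for the number of probes. For 21 of the 26 probes the whole interval lay within a 2-fold change in either direction, as it did for 88.4% of all tested probes. The 5 others, whose intervals reach past 2-fold, were the single probes of LOC543961 and HXK4 and 3 of the 7 probes of sus3. For 11 of the 26 probes the interval lay within 0.5 log2 units of 0, as it did for 17882 of all 37414 tested probes.

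**Figure D2:**
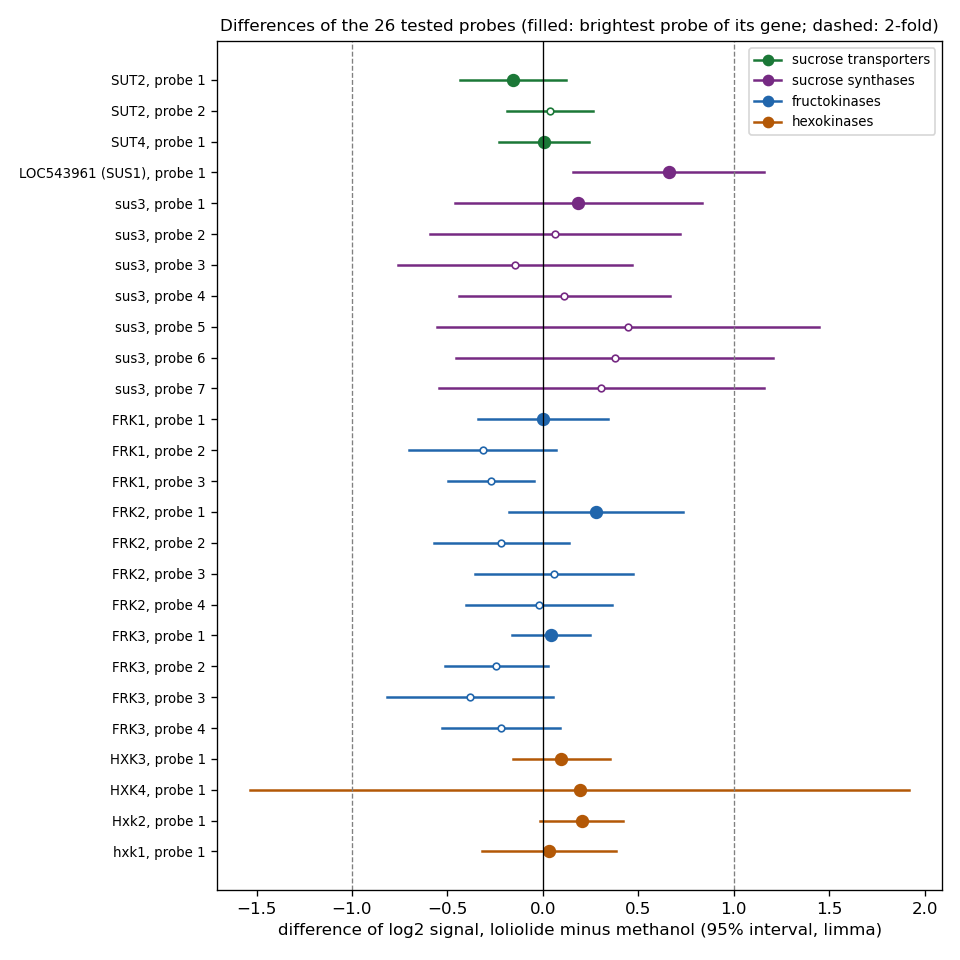
Difference of log2 signal, loliolide minus methanol (x axis), with its 95% interval for each of the 26 tested probes, grouped by gene and numbered from brightest to dimmest within a gene. Filled points are the brightest probe of a gene and dashed lines mark 2-fold. The intervals of LOC543961, HXK4 and sus3 probes 5 to 7 cross a 2-fold line, and the 3 sucrose transporter probes have narrow intervals around 0.

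Sucrose transporters move sucrose across membranes together with protons. SUT1, which does so in the phloem of tomato, was not analysed here. SUT4 (gene 543620) read -0.80, -0.85 and -0.80 on the loliolide arrays, against -0.80, -0.70 and -0.96 on the methanol arrays. The loliolide values lay inside the range of the methanol values, and the difference was 0.01 (SE 0.10, 95% interval -0.23 to 0.24, limma adjusted p = 0.981). The brighter probe of SUT2 (gene 543613) read -0.61, -0.52 and -0.83 with loliolide, against -0.59, -0.39 and -0.52 with methanol. Its groups overlapped, with a difference of -0.16 (95% interval -0.43 to 0.12, limma adjusted p = 0.486). The dimmer SUT2 probe differed by 0.04 (95% interval -0.19 to 0.26). The intervals of all 3 transporter probes lay within 0.5 log2 units of 0 in this scaling. Here 2 of the 3 were higher with loliolide, against 60.8% of all tested probes. The count was 1 of 3 with quantile normalisation and 0 of 3 with median centring, array weights, the spike-in scaling or without methanol replicate 3. With the spike-in scaling SUT2 differed by -0.46 and SUT4 by -0.30, where the median over all tested probes was -0.24.

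Sucrose synthases were represented by sus3 (gene 543731), with 7 probes, and by LOC543961 (gene 543961), whose synonyms are SUS1, sus2 and ssf, with 1 dim probe. The probe of LOC543961 had the lowest unadjusted p of the set. It read -5.64, -5.99 and -5.95 with loliolide, against -6.86, -6.60 and -6.10 with methanol. All loliolide arrays lay above all methanol arrays, though methanol replicate 3 lay close to loliolide replicates 2 and 3. The mean was -5.86 ± 0.19 with loliolide and -6.52 ± 0.39 with methanol (SD, n = 3 each), a 1.58-fold difference that did not pass (95% interval 0.16 to 1.16 on the log2 scale, limma adjusted p = 0.166). With array weights, which give less weight to the more variable arrays, 3523 of all 37414 tested probes passed. The difference of LOC543961 there was 0.83 and passed (limma adjusted p = 0.0289). With other scalings it was smaller and did not pass: 0.47 with cyclic loess, 0.37 with quantile normalisation, 0.36 with the spike-in scaling and 0.042 with normexp on median signals (limma adjusted p = 0.314 to 0.83). The processed signals behind it were small, 20.9, 17.0 and 13.2 with loliolide and 9.51, 11.52 and 16.2 with methanol, although the probe was well above background on all 6 arrays. In these unscaled signals the groups overlapped.

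The brightest sus3 probe, A_96_P156676, read 3.29, 3.84 and 4.09 with loliolide, against 3.72, 3.86 and 3.09 with methanol. The groups overlapped almost fully, and the difference was 0.19 (SE 0.27, 95% interval -0.46 to 0.83, limma adjusted p = 0.736). The 6 other sus3 probes differed by -0.15 to 0.45, and no sus3 probe had an adjusted p under 0.576. Of the 8 sucrose synthase probes 7 were higher with loliolide, against 60.8% of all tested probes, but only 4 of the 8 were higher with spike-in scaling, with array weights or without methanol replicate 3, and 5 of the 8 without loliolide replicate 3. The spike-in scaling moved the median difference of all tested probes from 0.06 to -0.24.

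The 7 sus3 probes varied together between arrays of the same group. All 7 probes were lowest on replicate 1 among the loliolide arrays and lowest on replicate 3 among the methanol arrays. Loliolide replicate 3 held the highest sus3 value of all 6 arrays for 6 of the 7 probes, and methanol replicate 3 the lowest for 6 of the 7. After each probe was centred on its own mean, the mean over the 7 probes spanned 0.97 log2 units among the loliolide arrays and 0.81 among the methanol arrays, a 2.24-fold range over all 6. Probes of one gene share its transcript and are not replicates, so these 7 probes read 1 profile of 6 samples. The leaf genes ran the other way on the same arrays. All 9 CAB4 and CAB6A probes were highest on replicate 1 and lowest on replicate 3 among the loliolide arrays, and highest on replicate 3 and lowest on replicate 2 among the methanol arrays. The CAB4 probe A_96_P130082 read 4.49, 3.53 and 3.03 with loliolide, against 3.45, 2.80 and 3.91 with methanol. In a search among 1100 named genes, done after the spread was seen, LOC101252584, RAN2A and TIP2-2 followed the brightest sus3 probe most closely, with Pearson's r between 0.975 and 0.987 (n = 6 arrays). The array of loliolide replicate 3 also had the lowest 75th percentile. The part of the leaf genes or of the array's signal in the sus3 profile was not tested.

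**Figure D3:**
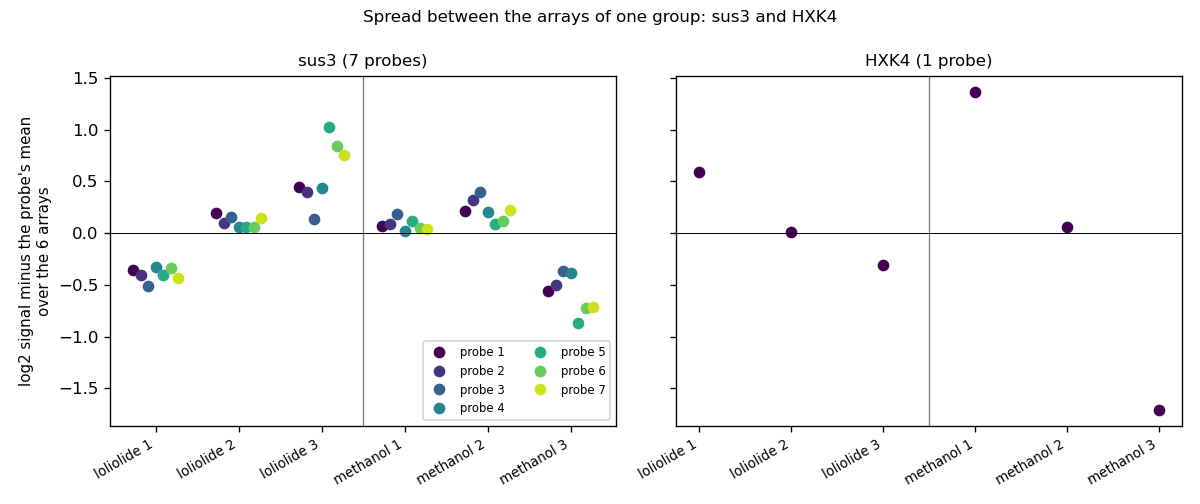
Log2 signal of each sus3 probe (left) and of the HXK4 probe (right), minus that probe's mean over the 6 arrays (y axis), for the 3 loliolide and 3 methanol arrays (x axis), where replicates of a group have no order. The 7 sus3 probes move together from array to array, low on loliolide 1 and methanol 3, and HXK4 spans the widest range among the methanol arrays.

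Fructokinases phosphorylate fructose, and in tomato FRK1 and FRK2 act in the cytosol, FRK3 in plastids, and FRK4 is known from stamens. The brightest FRK2 probe (gene 544022) read 1.24, 1.39 and 1.70 with loliolide, against 1.14, 1.48 and 0.87 with methanol. The groups overlapped, and the difference was 0.28 (SE 0.19, 95% interval -0.18 to 0.73, limma adjusted p = 0.446). Its 3 other probes differed by -0.22, 0.06 and -0.02. The brightest probe of FRK1 (gene 544023) read -0.49, -0.46 and -0.36 with loliolide, against -0.34, -0.24 and -0.73 with methanol, a difference of 0.00 (95% interval -0.34 to 0.34, limma adjusted p = 0.998). The loliolide values all lay between the methanol values.

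The 2 dimmer FRK1 probes differed by -0.32 and -0.27 on the log2 scale, lower with loliolide. The dimmest of them, A_96_P239453, read -5.43, -5.38 and -5.36 with loliolide, against -5.20, -4.99 and -5.16 with methanol. Its groups did not overlap and its unadjusted p of 0.0259 was the other one under 0.05 in the set, but it did not pass (limma adjusted p = 0.192). The brightest FRK3 probe (gene 543890) read 1.90, 1.95 and 2.03 with loliolide, against 1.90, 1.91 and 1.94 with methanol. It was the steadiest probe of the set, with a within-group SD of 0.05 and a difference of 0.04 (95% interval -0.16 to 0.25). The 3 dimmer FRK3 probes differed by -0.38 to -0.22, with adjusted p between 0.285 and 0.380 in limma. For 2 of them all loliolide arrays lay below all methanol arrays, as for 9.62% of all tested probes. Probes of the same gene share its transcript and are not replicates. On these 3 probes loliolide replicate 3 was the lowest of all 6 arrays.

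Of the 11 tested fructokinase probes, from 3 genes, 8 were lower with loliolide, with a median of -0.22, where 14656 of all 37414 tested probes were lower. The count was 7 of 11 with quantile normalisation, and 6 of 11 without loliolide replicate 1 or without methanol replicate 2. It was 11 of 11 with the spike-in scaling, where the median over all tested probes was itself -0.24. The median of the fructokinase probes was -0.062 without methanol replicate 2 and -0.10 without loliolide replicate 3. Probes of the same fructokinase gene gave different values, though their intervals overlapped. The log2 signal of a gene's brightest probe minus the mean of its other probes is a ratio within each array. A constant scaling of the array cancels in it, but a background offset or a response that depends on intensity does not. This ratio was higher on all loliolide arrays than on all methanol arrays for FRK1, FRK2 and FRK3. For FRK3 this log2 ratio was 2.75, 2.75 and 3.25 with loliolide, against 2.66, 2.62 and 2.49 with methanol. The mean shifts were 0.29 for FRK1, 0.34 for FRK2 and 0.32 for FRK3. For sus3 the same ratio shifted by -0.01 and for SUT2 by -0.19, with overlapping groups in both. Such ratios are common on this array: of the 599 named genes with more than 1 tested probe, 46.2% had groups that did not overlap, 31.9% higher with loliolide. A two-sided exact permutation test gave p = 0.1 for each of the 3 fructokinases (0.167 adjusted over the 5 genes compared), which is the smallest p that 3 arrays against 3 allow. The value of a gene depended on which probes stand for it: with the mean over all its probes FRK3 differed by -0.20 (limma adjusted p = 0.359).

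FRK4 (gene 543844) gave processed signals of 1.121, 1.09 and 0.98 with loliolide, against 1.47, 1.27 and 1.33 with methanol. These signals were not well above background on any array, so no difference is given.

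Hexokinases phosphorylate glucose and other hexoses, and tomato HXK4 is known as a plastid form. The probe of hxk1 (gene 543779) read 1.798, 2.09 and 2.26 with loliolide, against 2.14, 2.04 and 1.87 with methanol. Its groups overlapped, with a difference of 0.03 (95% interval -0.32 to 0.38, limma adjusted p = 0.927). The probe of Hxk2 (gene 543638) read -0.78, -0.78 and -0.62 with loliolide, against -0.88, -0.96 and -0.95 with methanol. All loliolide values were above all methanol values, and the 1.15-fold difference did not pass (0.20 in log2 units with an SE of 0.09, 95% interval -0.02 to 0.42, limma adjusted p = 0.276). The probe of HXK3 (gene 778210) read 0.21, 0.01 and 0.04 with loliolide, against -0.14, 0.02 and 0.08 with methanol, a difference of 0.10 (95% interval -0.16 to 0.35).

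HXK4 (gene 778211) varied most of all. Its probe read -2.14, -2.72 and -3.03 with loliolide, against -1.36, -2.67 and -4.43 with methanol. The processed signal was 431, 176 and 51.5 on the methanol arrays of replicates 1, 2 and 3, so that after scaling the methanol arrays alone spanned 8.42-fold and the loliolide arrays 1.85-fold. The methanol range enclosed the loliolide range, and the difference of 0.19 has an interval from -1.53 to 1.92 (limma adjusted p = 0.908). Without methanol replicate 3 the difference was -0.61 and without methanol replicate 1 it was 0.92, so its direction rests on single arrays. All 4 hexokinase probes were higher with loliolide in this scaling, where 60.8% of all tested probes were. The count was 3 of 4 with median centring or normexp and 2 of 4 with array weights or without methanol replicate 3. All 4 were lower with the spike-in scaling, where the median over all tested probes was -0.24.

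Over all tested probes the within-group SD had a median of 0.17. The 8 sucrose synthase probes had within-group SDs of 0.31 to 0.65, the 11 fructokinase probes 0.05 to 0.27 and the 3 transporter probes 0.08 to 0.13. HXK4 stood at 1.14, above 99.7% of all tested probes, while the 3 other hexokinases lay between 0.07 and 0.19. The sucrose synthase probes lay between the 82.7th and the 98.3rd percentile of this spread. Of these 8 probes, 7 read the transcript of sus3 and are not replicates, and 1 is the dim probe of LOC543961.

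**Figure D4:**
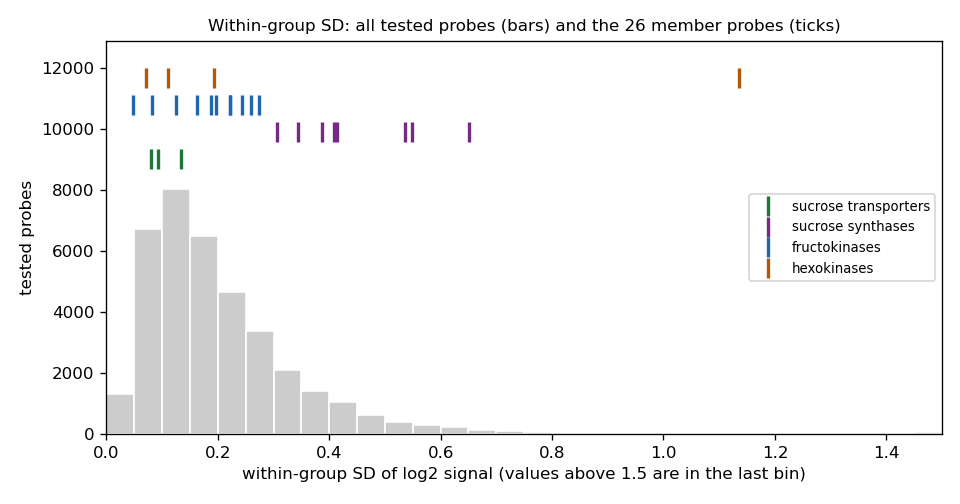
Histogram of the within-group SD of log2 signal (x axis) over all tested probes (y axis, number of probes), with 1 tick for each of the 26 tested probes of the set, in a row per family. The transporter and fructokinase ticks lie at 0.05 to 0.27, the sucrose synthase ticks at 0.31 to 0.65, and HXK4 at 1.14.

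By a rule of likeness, the named genes whose scaled signal followed the LOC543961 probe most closely over the 6 arrays were searched among 1100 genes, each by its brightest tested probe. They were 3OH-2, a gibberellin oxidase gene with the synonym SlGA3ox1, LOC543916, with the synonym XTH9, and a gene with the symbol 9612 and the synonym P18, with Pearson's r between 0.985 and 0.987 (n = 6 arrays). These r values share the difference between the groups and the scaling of each array. Chosen after the spread was seen, the same search for HXK4 gave GABA-TP3, a GABA transaminase gene, at r = 0.987. GABA-TP3 read 0.59, 0.16 and 0.20 with loliolide, against 1.099, 0.23 and -0.59 with methanol, so that it too was highest on methanol replicate 1 and lowest on methanol replicate 3.

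The rest of the sucrose and starch pathway was read from a list of invertases, their inhibitors, hexose transporters, enzymes of sucrose, sorbitol and starch metabolism and a kinase subunit of sugar signalling, of which 17 genes were tested by their brightest probe. Of these, 1 rose, 0 fell and 16 did not pass, and their median difference was 0.15, beside 0.06 over all tested probes. The gene that rose was lin5 (gene 544241), an invertase of the cell wall, where it cleaves sucrose to glucose and fructose. It read -2.001, -2.14 and -2.07 with loliolide, against -4.16, -3.53 and -3.84 with methanol, a difference of 1.77 on the log2 scale, or 3.41-fold, with an SE of 0.17 (limma adjusted p = 0.0154). Its call was lost without any one of the 3 loliolide arrays and with the replicate number as a block. The ratio of lin5 to the brightest sus3 probe within each array was higher with loliolide by 1.58 log2 units, with no overlap between the groups. Against the brightest probes of the 11 tested genes, lin5 gained 1.11 to 1.93 log2 units, and the groups of this ratio overlapped for HXK4 alone. The 11 ratios share lin5, which was taken because it passed, so they are given as a description with no test.

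A further probe of the list passed, the second brightest of 4 probes of AGP-S2 (gene 544033, synonym agpL2), a gene of ADP-glucose pyrophosphorylase, which makes the precursor of starch. It read 0.13, 0.14 and 0.27 with loliolide, against -0.44, -0.36 and -0.44 with methanol (limma adjusted p = 0.0475). The brightest probe of AGP-S2 differed by 0.01 and its 2 others by 0.03 and 0.20, so the probes of this gene gave different values too. Counted by probes, 2 of 37 tested probes of the list passed, both higher, where 0.783% of all tested probes passed and 0.77% were higher.

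**Figure D5:**
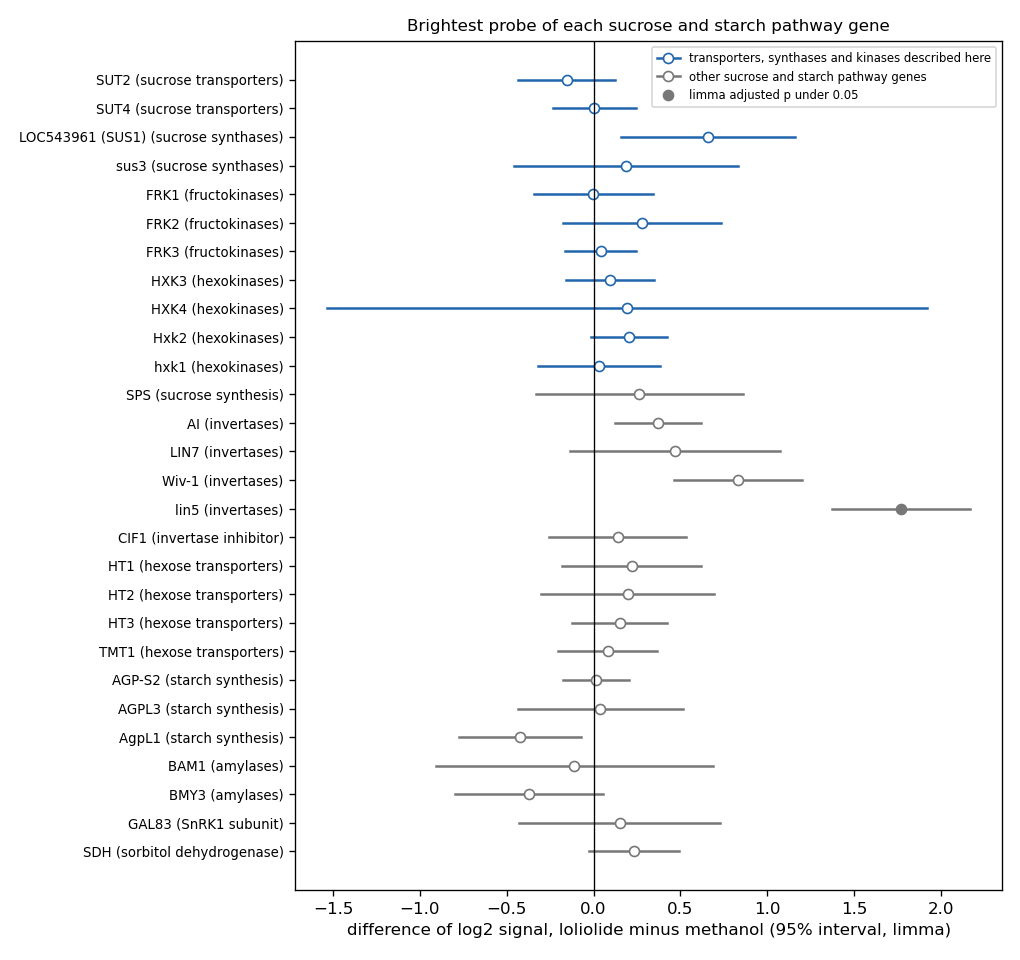
Difference of log2 signal, loliolide minus methanol (x axis), with its 95% interval for the brightest probe of each tested gene: the transporters, synthases and kinases described here (blue) and the other sucrose and starch pathway genes (grey). The filled point, lin5 at 1.77, is the 1 gene past a limma adjusted p of 0.05, and 9 of the 11 blue intervals lie within 1 log2 unit of 0.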

How the data were processed

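The authors deposited the scanner output of 6 arrays, with an intensity per spot from Agilent Feature Extraction, which had subtracted background and a spatial trend, version 11.5.1.1 per the file headers and 9.1 per the submitters' processing notes. These intensity values are not normalised between arrays. Other values per spot, the deposited 0 or 1 flags, mark saturated, outlying and well-above-background spots. The authors' deposited table of log2 ratios lists 27 probes, of which 0 belong to the genes described here, and was not used further.

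Signals were put on the log2 scale, each array's 75th percentile (control spots aside) was subtracted, and spots of a probe were averaged. Spots marked as outliers (0 to 5 per array) were removed. A probe was tested if 1 group had it well above background on every array and all 6 arrays had a value, so 6189 were not tested. The comparison used limma 3.58.1 in R 4.3.3 on all tested probes, p-values adjusted by Benjamini and Hochberg's method, and a threshold of 0.05. Genes were matched by unversioned RefSeq accession to assembly SLM_r2.1, and the brightest probe over all arrays stood for a gene. Named were all genes of the set, pathway genes past the threshold and 3 genes by likeness to the probe with the lowest p. Chosen after their values were seen were the genes like sus3 and HXK4, AGP-S2 (called by a dimmer probe), AgpL1, BMY3, AGPL3 and BAM1. So were Wiv-1, AI and LIN7, which passed with array weights. The test was run on simulated data with independent noise and no slide effect, so that run does not show how the test handles a slide effect. The genes and lists were chosen with earlier results of these data known. Alternatives covered background, scaling, filters, variance, array weights, the replicate block and each array left out. The labels do not state that replicate numbers pair samples, and the deviations of arrays with the same number correlated at -0.46 to -0.14.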

Additional observations from a re-analysis of the deposited data

How the results depend on the processing

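All alternatives were planned. The count of tested probes of the set that changed, 0 as reported, stayed 0 in all of them except array weights. There 2 of 26 changed (LOC543961 higher and the FRK1 probe A_96_P264462 lower), beside 3523 of all 37414 tested probes. No block for the slide could be had, since each slide holds 1 group. Over all probes 293 changed as reported, 54 with normexp on median signals, 107 with quantile normalisation, 102 with cyclic loess, 189 with median centring, 63 with the spike-in scaling, 190 with the filter on all 6 arrays, 159 with a variance trend and 3523 with array weights. The replicate block gave 0 probes in limma (5196 with unadjusted p below 0.05) and 0 pathway genes. Without each array in turn 0 to 105 probes changed. The count of pathway genes, 1 as reported, was 6 with array weights and 0 to 1 without each array. The median difference over the 11 genes, 0.10 as reported, was -0.21 with the spike-in scaling and -0.045 to 0.13 without each array. The cause of these shifts was not tested. Of 121 differences of single genes under alternatives other than left-out arrays, 101 kept their direction and side of the threshold, 1 passed and 19 changed sign, none of them past the threshold. With the spike-in scaling the differences were -0.025 for FRK2, -0.26 for FRK3, -0.27 for hxk1, -0.10 for Hxk2, -0.21 for HXK3, -0.11 for HXK4, -0.12 for sus3 and -0.30 for SUT4. With median centring they were -0.0037 for FRK3, -0.014 for hxk1 and -0.040 for SUT4, with normexp 0.031 for FRK1, -0.021 for hxk1 and -0.038 for SUT4, and with quantile normalisation 0.0029 for FRK1. With array weights they were -0.066 for hxk1, -0.71 for HXK4 and -0.041 for SUT4, and with the mean over its probes -0.20 for FRK3. Without each array in turn, 12 of 66 differences changed sign, within ranges of -0.15 to 0.10 for FRK1, -0.076 to 0.16 for hxk1, -0.61 to 0.92 for HXK4, -0.047 to 0.41 for sus3 and -0.064 to 0.064 for SUT4. Signal over background limits LOC543961, the dimmest FRK1 probe and FRK4.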

Other observations

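A pair of starch genes from the pathway list, chosen after their values were seen, had several probes lower with loliolide without passing. AgpL1 (gene 544283), a gene of ADP-glucose pyrophosphorylase, had 3 probes, and on each of them all loliolide arrays lay below all methanol arrays, as for 9.62% of all tested probes. Its brightest probe read 0.70, 0.66 and 0.78 with loliolide, against 1.44, 0.96 and 1.00 with methanol, and its difference was -0.42 log2 units with an SE of 0.15 (limma adjusted p = 0.189). Its 2 other probes differed by -0.36 and -0.45. BMY3 (gene 543804), whose symbol is that of a beta-amylase, had 4 probes, all lower with loliolide, with differences of -0.62 to -0.16 on the log2 scale. The lowest adjusted p among them was 0.097 in limma. The groups did not overlap for 1 of the 4, lower with loliolide, as for 9.62% of all tested probes. Of their relatives on the list, AGPL3 and BAM1 differed by 0.04 and -0.11, with overlapping groups. All 4 probes of AGP-S2, described above, were higher with loliolide, by 0.01 to 0.59. With array weights AgpL1 and BMY3 were among the 6 pathway genes that passed, where 3523 of all 37414 tested probes passed. The others were lin5 and the invertase genes Wiv-1, AI and LIN7. In the main fit the brightest probes of Wiv-1, AI and LIN7 differed by 0.83, 0.37 and 0.47, higher with loliolide. None passed (limma adjusted p = 0.0698, 0.139 and 0.344). For Wiv-1 and AI all loliolide arrays lay above all methanol arrays, as for 19.9% of all tested probes, and for LIN7 the groups overlapped.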
